A study of Oryza sativa Japonica Group with 6 samples.

Results

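At a 3' splice site the spliceosome joins the end of an intron to the first base of the next exon. Where an intron can end at either of 2 such sites, use of the upstream site gives the longer exon and use of the downstream site gives the shorter one. The stretch between them is exon in the long form and intron in the short form. U2AF binds the end of the intron and helps to select the site, and SR proteins bind exon sequences and promote the use of nearby sites. A choice between distant sites adds or removes a block of sequence, whereas closely spaced sites shift the junction by a few bases. An added stretch keeps the reading frame only when its length is divisible by 3 and it holds no stop codon.

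Distant alternative 3' splice sites were taken as the events whose upstream (inclusion) form was more than 12 bases longer than the downstream form in the authors' table. This rule gave 1261 of the 2494 alternative 3' splice site events with values, in 1034 host genes, and left 1233 closely spaced events. The splicing tables held 12313 events of all kinds with values. RNA came from grains of the rice line Zhenong 34, labelled wild type with control treatment, and from grains of the sgs3 line, labelled mutant with EMS treatment. Ethyl methanesulfonate, EMS, is a mutagen that acts across the genome, so an EMS line can carry further mutations besides the one it is named for. SGS3 works with an RNA-dependent RNA polymerase to make the double-stranded RNA from which trans-acting small RNAs are cut. The allele, the age of the grains and the number of plants per library are not in the labels, so p-values measure the spread between libraries, which may be technical. Gene expression had 3 libraries per group. The alternative 3' splice site table had 3 sgs3 libraries and 2 wild-type libraries, which carried no replicate number.

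Of the 2 genes described as SGS3 homologs, LOC_Os12g09580 had TPM values of 8.73, 11.59 and 29.24 in sgs3 and of 94.92, 40.86 and 53.45 in wild type, and the groups did not overlap. Its log2 fold change was -1.96 with an SE of 0.509 (limma adjusted p = 0.0436), and -0.91 with an SE of 0.293 after median-of-ratios scaling (limma adjusted p = 0.0978). The other, LOC_Os12g09590, stayed between 2.03 and 3.67 TPM in all libraries. Grain transcripts prevailed: glutelin genes summed to between 26459.0 and 206523.6 TPM per library, and chlorophyll a-b binding genes to between 9.8 and 158.0 TPM. Wild-type replicate 1 stood apart from the other libraries in its storage protein sums. Its glutelin sum was the lowest, the next being 133903.7 TPM, and its prolamin sum was 13827.7 TPM against 96326.4 to 217134.3 TPM elsewhere. Its granule-bound starch synthase sum, 2808.0 TPM, lay within the range of the other libraries, 2146.6 to 4792.9 TPM. Its sums for chlorophyll a-b binding and Rubisco small subunit genes, 120.9 and 238.2 TPM, were below those of sgs3 replicate 2, 158.0 and 250.3 TPM. The headings of the splicing table do not name its 2 wild-type libraries. Over 886 genes with at least 20 alternative 3' splice site reads in every library, the log2 ratio of reads between these 2 libraries had a Pearson's r of 0.785 with the log2 TPM ratio of wild-type replicates 2 and 3. With the TPM ratios that involve replicate 1 it was -0.369 (replicates 1 and 2) and -0.00151 (replicates 1 and 3). The reads thus followed the TPM of replicates 2 and 3, as a description across genes that share libraries, and no library was given a number from it.

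The level of the upstream site, on a scale from 0 to 1, estimates the share of transcripts that use it among those with either form of the event. The authors computed it from the junction reads of both forms after dividing each by an effective length. The upstream form has the greater length, so its reads may include reads that run unspliced across the downstream site. Transcripts that retain the intron could give such reads too. Shares of transcripts given below are estimates with this limit. The distant events together had 206063 to 243291 junction reads per library. Of the 1261 members, 516 in 453 host genes had at least 20 junction reads in every library and were tested. Another limit of 10 reads would keep 707, and 1110 had at least 1 read in every library. Since every library had to pass, hosts with little RNA in either group were left out. In bulk grain, fewer cells of a type and less RNA per cell cannot be told apart. A tested member had a median of 430.5 reads over the 5 libraries, from 122 to 394253. All reads are PCR products without molecular identifiers, so floors given from counts cover counting error only.

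Most distant events had a dominant site. In the mean of both group means, the upstream site was used in over 0.9 of transcripts in 193 of 516 tested members (37.4%), and the downstream site in over 0.9 in 136 (26.4%). The remaining 187 members (36.2%) used each site in at least 0.1 of transcripts. Only 109 members (21.1%) stayed between 0.1 and 0.9 in all 5 libraries. Among 486 tested closely spaced events, 269 (55.3%) used each site in at least 0.1 of transcripts, and 64 (13.2%) used the downstream site in over 0.9. The median level was 0.667 for distant events, with quartiles of 0.0789 and 0.970, and 0.711 for closely spaced ones, with quartiles of 0.240 and 0.936. These shares are descriptions over events, which share their libraries, and were not tested.

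**Figure D1:**
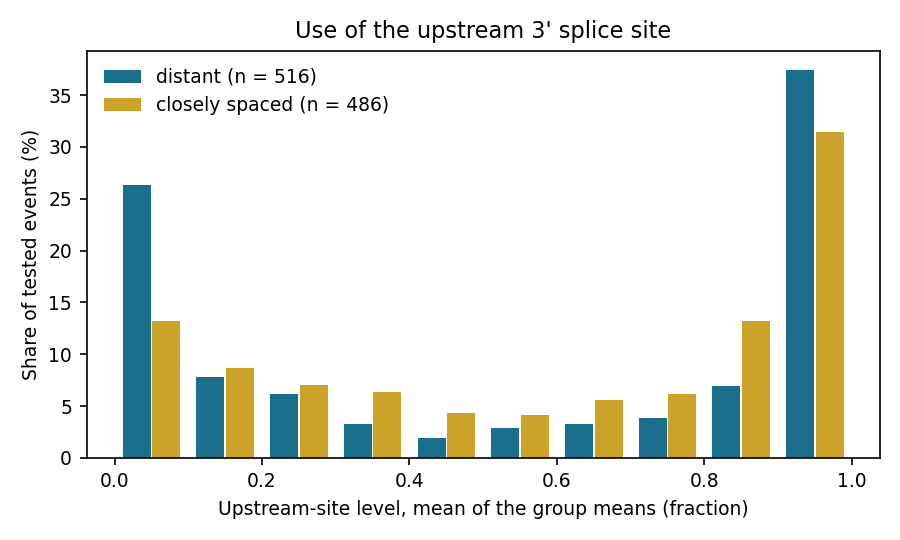
Share of tested events (y axis, %) in 10 equal bins of the upstream-site level (x axis, fraction, mean of the sgs3 and wild-type means), for 516 distant and 486 closely spaced events. Both kinds pile up at the ends of the scale, and the lowest bin holds a larger share of the distant events, 26.4% with the downstream site over 0.9 against 13.2%.

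The distance between the sites ran from 14 to 2774 bases with a median of 51 bases. It was 14 to 50 bases in 629 members, 51 to 150 bases in 273 and over 150 bases in 359. In the last class the length difference in the authors' table stood at its limit of 149, so distance and frame were taken from the coordinates. At that limit the upstream form was given an effective length of 298 against 149 for the downstream form, so its reads count for less per read. Use of both sites was about as frequent at each distance among tested members: 37.9% of those up to 50 bases, 35% of those of 51 to 150 bases and 34.7% of those over 150 bases. The median level was 0.523, 0.793 and 0.747 in these classes. At the threshold itself, 17 tested members had a distance of 14 bases, with a median level of 0.800, from 0.000227 to 0.995. The 16 tested events just outside it, at 13 bases, had a median level of 0.313, from 0.00984 to 0.880.

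The distance was divisible by 3 in 414 of 1261 members (32.8%), with remainders of 1 in 399 and of 2 in 448. In closely spaced events it was divisible by 3 in 604 of 1233 (49.0%), of which 395 were exactly 3 bases apart. Tested distant events with an in-frame distance used both sites in 71 of 176 cases (40.3%), against 56 of 166 (33.7%) and 60 of 174 (34.5%) for remainders of 1 and 2. Their median level was 0.473, against 0.776 and 0.732, a lower level meaning more use of the downstream site. By class of use, 28% of the upstream-dominant members, 37.5% of the downstream-dominant members and 38% of those using both sites were in frame. Whether a stretch lies in coding sequence is not in the tables. No genome was used here, so no splice site sequence is shown.

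Site use followed the annotation only in part. The table lists transcripts for each form, with either an annotated locus name or the identifier of an assembled transcript. Both forms had an annotated transcript in 494 members, the upstream form alone in 207 with an assembled downstream form, and the downstream form alone in 315 with an assembled upstream form. Neither form had an annotated transcript in 173 members whose forms were both assembled. Where only the downstream form was annotated, the assembled upstream site was still the major one in 58 of 150 tested members (38.7%). Where only the upstream form was annotated, the assembled downstream site was the major one in 22 of 88 (25%). Events with both forms annotated most often had a dominant site: 51 of 230 (22.2%) used each in at least 0.1 of transcripts, against 28 of 38 (73.7%) of those with neither form annotated. Assembled transcripts are built from reads, possibly those of these libraries, whereas annotated ones are listed whatever their reads. The classes may thus differ in site use by the way they were made, which was not tested. An intron listed as retained in its own table held both sites of 153 members. The 72 tested ones among them had a median level of 0.325, against 0.697 for the other 444.

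**Figure D2:**
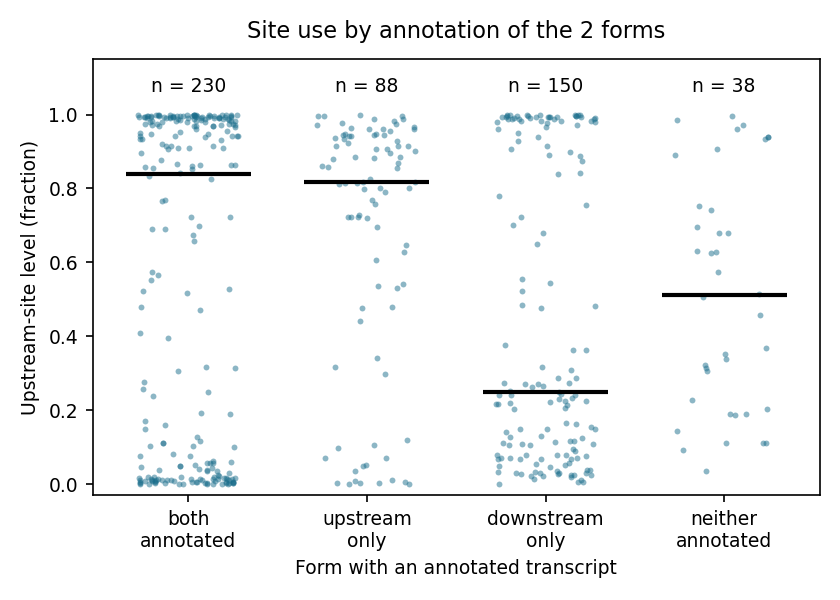
Upstream-site level (y axis, fraction, mean of the group means) of tested distant events by which form has an annotated transcript (x axis); each point is an event and the bar is the median. The medians are 0.839 with both annotated, 0.816 with the upstream form only, 0.250 with the downstream form only and 0.511 with neither.

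Most host genes, 871 of 1034, held 1 distant event. Another 125 held 2 and 38 held 3 or more, and 188 members shared their donor, the exon end before the intron, with another member. The median intron up to the upstream site was 235 bases long, with quartiles of 96 and 655. The gene with most members was LOC_Os12g20144, with 12 events at 3 donors, of which 1 had the reads to be tested. The RCD1-type inactive poly(ADP-ribose) polymerase gene LOC_Os10g42710 held 6 events at 1 donor, all with annotated transcripts on both forms. Its 3 tested events, 96, 198 and 220 bases from a shared downstream site, had sgs3 mean levels of 0 to 0.0117 and wild-type mean levels of 0.00529 to 0.0264, so nearly all transcripts used the site farthest downstream.

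Among the 12 lists of host genes, that of spliceosome and RNA-binding genes had the largest share of events with both sites in use. This list took in 54 members in 34 genes. Some of its tested members lie in the same gene, such as the events of LOC_Os11g45590. Of its 34 tested members 21 (61.8%) used each site in at least 0.1 of transcripts, against 36.2% of all tested members. Their median level was 0.241 and their median distance 220.5 bases. The list of ribosome and translation genes, with 33 members in 31 genes, was at the other end: 2 of 17 tested members (11.8%) used both sites, the median level was 0.0132 and the median distance 21 bases. For transcription factors the count was 14 of 24 (58.3%), although 3 of these 24 tested members are the RS2Z33 genes of the splicing list. It was 9 of 22 for ubiquitin and proteasome genes, 6 of 15 for chromatin genes, 3 of 6 for transporters and 3 of 12 for membrane trafficking. It was 9 of 39 for plastid and mitochondrial genes, 10 of 49 for kinases and phosphatases, 1 of 11 for starch, sugar and storage genes and 0 of 1 for chaperones. The patterns on descriptions that define these lists took in a few unrelated genes, such as tricin synthase 2 among the chromatin genes. The lists are described by counts only, and no list was tested against the others.

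The 3 host genes described as RS2Z33, an SR protein with zinc knuckles, each had distant sites of similar spacing and similar use. In LOC_Os01g06290, on the minus strand of chromosome 1, the long exon began at 2988273 and the short one at 2988042, 231 bases apart. Its levels were 0.292, 0.324 and 0.203 in sgs3 and 0.313 and 0.229 in wild type. The sites of LOC_Os05g02880 lay 219 bases apart, with levels of 0.333, 0.241 and 0.350 in sgs3 and of 0.450 and 0.388 in wild type. These groups did not overlap, but the difference of -0.11 did not pass the quasi-binomial test (adjusted p = 0.509). The sites of LOC_Os03g17710 lay 246 bases apart, with levels of 0.194, 0.275 and 0.175 in sgs3 and of 0.171 and 0.271 in wild type. All 3 distances are divisible by 3, all 3 upstream forms were assembled rather than annotated, and in all 3 genes the shorter exon was the major form in every library. Reads of close paralogs may be shared, which the tables do not resolve.

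Both subunits of U2AF, the factor that recognizes the end of the intron, had such events in their own transcripts. For the large subunit A gene LOC_Os11g41820 the sites were 182 bases apart, with levels of 0.264, 0.321 and 0.180 in sgs3 and of 0.245 and 0.199 in wild type. In the large subunit B gene LOC_Os11g45590, upstream sites 317 and 320 bases from the same downstream site had sgs3 means of 0.227 ± 0.0712 and 0.187 ± 0.0669 (SD, n = 3) and wild-type means of 0.256 ± 0.00476 and 0.261 ± 0.0228 (SD, n = 2). In the small subunit A gene LOC_Os09g31482, with sites 324 bases apart, the means were 0.306 ± 0.0755 (SD, n = 3) and 0.323 ± 0.0372 (SD, n = 2). The small subunit B gene LOC_Os05g48960, with sites 667 bases apart, kept a level between 0.00712 and 0.0294 in all 5 libraries. In all 4 genes the levels of the groups overlapped in at least 1 event, and none was called. Luc7-like 1 (LOC_Os03g62640, 661 bases), related to a yeast U1 snRNP protein, used both sites with levels of 0.351 to 0.467. The SC35 gene LOC_Os07g43050 (21 bases) had levels of 0.450 to 0.626, whereas the other SC35 gene, LOC_Os08g37960, with the same spacing of 21 bases, kept the upstream site at 0.962 or more. These genes were chosen for description after their values were seen.

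**Figure D3:**
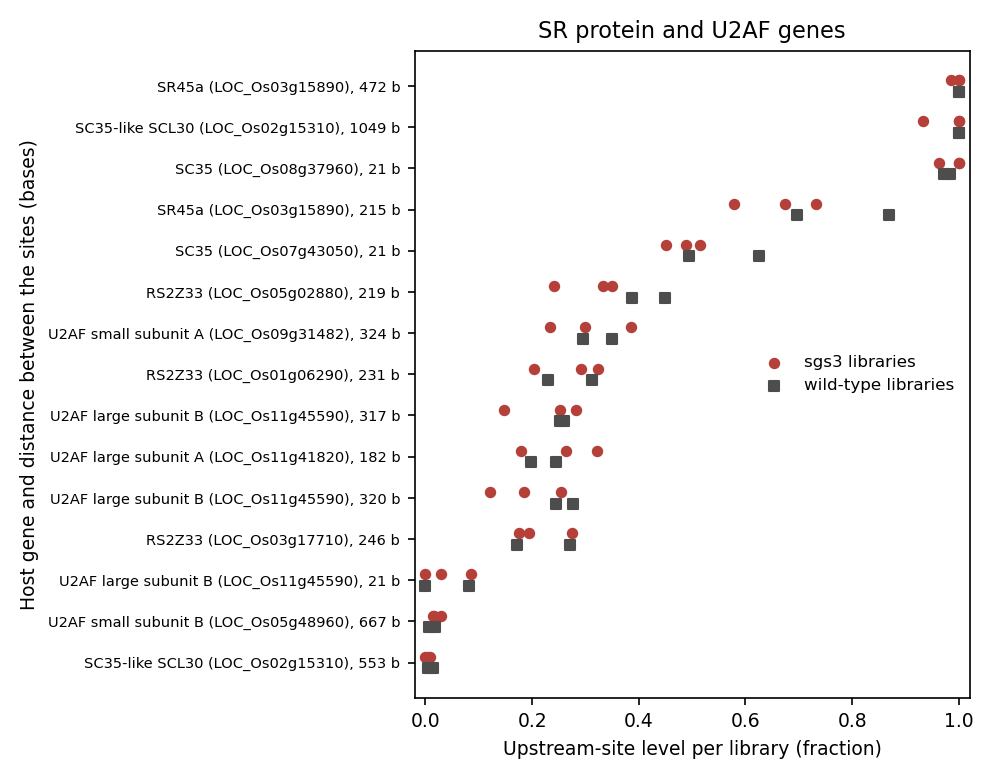
Upstream-site level (x axis, fraction) in each sgs3 and wild-type library for tested distant events in SR protein and U2AF genes (y axis, host gene and distance in bases). The events were selected by gene description and may not be all events of such genes. The 3 RS2Z33 genes and, apart from the event of 21 bases, both U2AF large subunits sit between 0.12 and 0.45, with sgs3 and wild-type libraries interleaved in most of them.

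The gene with the most junction reads was LOC_Os12g16900, described as a retrovirus-related Pol polyprotein and listed at 3899 to 26549 TPM. Its 3 members share a pair of sites 75 bases apart on chromosome 12, at 9733808 and 9733883, and differ in the donor. With the donor at 9689271, 44536 bases before the upstream site, the levels were 0.0234, 0.0208 and 0.0215 in sgs3 and 0.0238 and 0.0235 in wild type, on 394253 reads, 36.2% of all reads of distant events. With the donor at 9689307, only 36 bases further on, the level was 0.989 or more in every library on 31682 reads. With the donor at 9687126 it was 0.994 or more on 13097 reads. The same pair of sites was thus listed with opposite levels for different donors, in both genotypes. Reads that run unspliced across the downstream site name no donor and may be counted in all 3 events. A choice of site by donor is therefore not shown.

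Starch genes were among the other well-read hosts. The large subunit 1 gene of ADP-glucose pyrophosphorylase, LOC_Os01g44220, whose enzyme makes the sugar donor of starch synthesis, had 98601 reads over sites 22 bases apart. Its level was 0.976, 0.973 and 0.978 in sgs3 and 0.985 and 0.984 in wild type. The groups did not overlap, and the difference of -0.00872 had an adjusted p of 0.0256 in the quasi-binomial test but lay far below the minimum of 0.1 set for a call. With any 1 library left out it did not pass (adjusted p from 0.227 to 0.377). The branching enzyme gene LOC_Os02g32660, with sites 447 bases apart and 40093 reads, had levels between 0.975 and 0.995 with overlapping groups. Sucrose synthase 4 (LOC_Os03g22120), which splits sucrose for starch making, had 2 events. The sites 73 bases apart gave 0.937 to 0.973 on 19528 reads. The annotated downstream site of the other, 305 bases from an assembled upstream site, had 0 reads in 4 libraries and 15 of 742 reads in the other, a wild-type one.

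Differences in site choice between the genotypes lay in both directions. Over the 516 tested members the median difference in level, sgs3 minus wild type, was -0.00146, and the median absolute difference was 0.0211. The groups did not overlap in 101 members (19.6%), 51 of them higher in sgs3, against 20.8% of all tested alternative 3' splice site events. A difference of at least 0.1 was seen in 58 members (11.2%, against 6.29% of all 5471 tested events of all kinds and 10.6% of tested alternative 3' splice site events), 29 in each direction, and 63 had an unadjusted p under 0.05 (12.2%, against 10.6% of all tested events). In 11 members (2.13%) the site used by most transcripts was another one in each group, against 3.7% of the 486 tested closely spaced events.

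Only 2 of 516 tested members (0.388%) were called, both with less use of the upstream site in sgs3, at an adjusted p under 0.05 and a difference of at least 0.1. Over all kinds of event 26 of 5471 were called (0.475%), 18 of them lower in sgs3 (0.329%), and of the closely spaced events 4 of 486 (0.823%). The share among distant events is near this background. Without a minimum difference 5 members passed (0.969%), against 0.768% of all events. In the authors' deposited table, 25 of the same 516 members (4.84%) had an FDR under 0.05 with a difference of at least 0.1, against 4.09% of all tested alternative 3' splice site events.

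**Figure D4:**
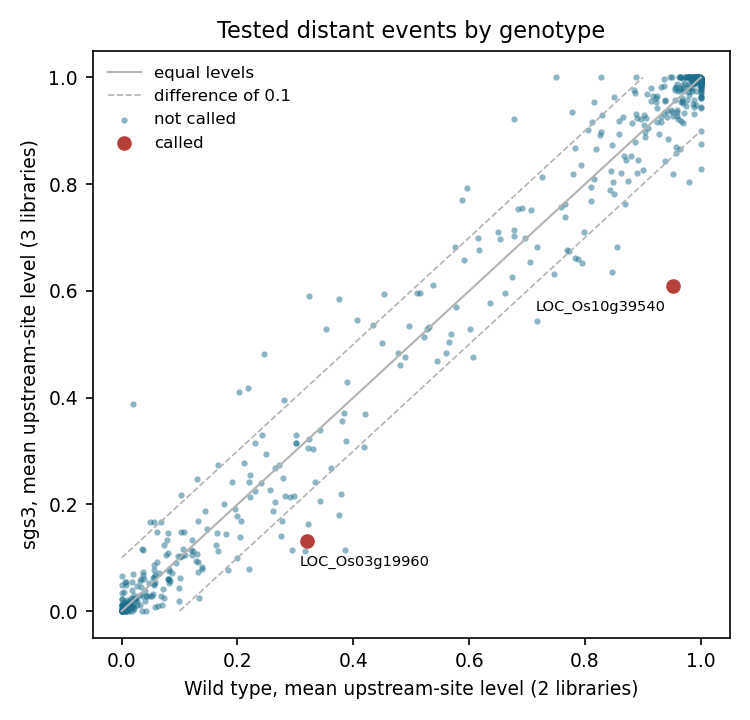
Mean upstream-site level in sgs3 (y axis, 3 libraries) against wild type (x axis, 2 libraries) for the 516 tested distant events, with the line of equal levels and dashed lines at a difference of 0.1. The 2 called events lie below the lower dashed line.

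The first called event was in LOC_Os10g39540, described as probable protein phosphatase 2C 27, of a family of serine/threonine phosphatases that includes negative regulators of abscisic acid signalling. On the plus strand of chromosome 10 the long exon began at 21129255 and the short one at 21129278, 23 bases apart and out of frame, after a donor at 21128213. The short form was annotated and the long form was assembled. Levels were 0.616, 0.585 and 0.627 in sgs3 and 0.939 and 0.966 in wild type, so every sgs3 library lay well below both wild-type libraries. In reads, the downstream site had 329 of 913 in sgs3 and 39 of 983 in wild type. The means were 0.609 ± 0.0221 (SD, n = 3) and 0.953 ± 0.0188 (SD, n = 2), and the difference of -0.343 passed the quasi-binomial test (adjusted p = 0.000122). The call did not hold with any sgs3 library left out (adjusted p from 0.137 to 0.225, quasi-binomial test), without the wild-type library at the second place (0.0629) or with limma on empirical logits (0.0767), while the difference stayed between -0.357 and -0.330.

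The host gene itself was listed at 45.98, 60.39 and 55.59 TPM in sgs3 and at 98.56, 84.16 and 117.31 TPM in wild type. The groups did not overlap, with a log2 fold change of -0.87 and an SE of 0.331 that did not pass (limma adjusted p = 0.0685). After median-of-ratios scaling the sign turned, to 0.21 with an SE of 0.311.

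The second was in LOC_Os03g19960, described as a probable pre-mRNA-splicing factor ATP-dependent RNA helicase, of the DEAH family whose members remodel the spliceosome. On the plus strand of chromosome 3 the exon starts lay at 11238765 and 11238813, 48 bases apart and in frame, with an assembled long form and an annotated short form. Levels were 0.140, 0.142 and 0.111 in sgs3 and 0.288 and 0.354 in wild type, and the groups did not overlap. The upstream site had 83 of 501 reads in sgs3 and 78 of 203 in wild type. The difference was -0.190, between means of 0.131 ± 0.0172 (SD, n = 3) and 0.321 ± 0.0470 (SD, n = 2), with an adjusted p of 0.0419 in the quasi-binomial test. Leaving out any library ended the call (adjusted p from 0.119 to 0.319), as did limma on empirical logits (0.424) and a limit of 1 read in every library (0.0640), and the difference stayed between -0.223 and -0.157. TPM of the gene was 20.92 to 32.99 in sgs3 and 23.5 to 46.38 in wild type, with overlapping groups.

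The other 2 members that passed on adjusted p but not on size both used the upstream site more in sgs3. LOC_Os07g08420 is described as CPRF2 and, in a second description, as the bZIP regulator opaque-2, which in maize activates seed storage protein genes. Its sites, 188 bases apart on the minus strand of chromosome 7, had levels of 0.130, 0.120 and 0.0929 in sgs3 and of 0.0386 and 0.0364 in wild type on 4020 reads. The groups did not overlap (difference 0.0769, quasi-binomial adjusted p = 0.00528), while TPM was 104.21 to 141.43 in sgs3 and 103.61 to 139.11 in wild type. This member was chosen after its values were seen. LOC_Os02g17500, probable plastidic glucose transporter 2, had sites 164 bases apart. Its upstream site had 49 of 739 reads in sgs3, with levels of 0.0281, 0.0336 and 0.0398. In wild type it had 0 of 316 reads, which allows a share of up to 0.949% of reads (quasi-binomial adjusted p = 0.0371). Neither passed with any 1 library left out: the adjusted p was 0.130 to 0.299 for CPRF2 and 0.116 to 0.249 for the transporter.

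A further event, in LOC_Os04g35000, was called under other settings, and it too was chosen after its values were seen. Its sites lay 19 bases apart and out of frame on the plus strand of chromosome 4, and its downstream form was assembled. Levels were 0.801, 0.907 and 0.917 in sgs3 and 1 in both wild-type libraries, so the groups did not overlap. The downstream site had 27 of 256 reads in sgs3 and 0 of 320 in wild type, which allows up to 0.938% of reads there. The difference of -0.125 did not pass the quasi-binomial test (adjusted p = 0.0538). It passed with limma on empirical logits (adjusted p = 0.0349) and with adjustment over alternative 3' splice sites alone (0.0394), while with a library left out the adjusted p was 0.163 to 0.383. TPM of the gene was 15.23, 22.33 and 21.34 in sgs3 and 222.49, 43.13 and 49.26 in wild type, and the part of gene level in the difference was not tested.

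Some sites were read in a single genotype. In 55 tested members (10.7%) 1 of the sites had 0 reads in all sgs3 libraries and some in wild type, against 4.73% of tested closely spaced events. In 65 members (12.6%, against 5.76%) the reverse held, for which only 2 libraries, not 3, had to lack the site. A rarely used site can go unread in a few libraries through counting alone, and dominant sites were more frequent among distant events. These counts are therefore not counts of genotype differences, and the part of counting in them was not tested. Larger contrasts between the groups were found among members with fewer reads than the test required. In LOC_Os04g31790, which has no description, the sites lay 63 bases apart and in frame on the plus strand of chromosome 4, at 19035985 and 19036048. The upstream site had 0 of 127 reads in sgs3, which allows up to 2.36% of reads, and 34 of 34 in wild type, where the downstream site may hold up to 8.82%. Libraries had 23, 79 and 25 reads in sgs3 and 12 and 22 in wild type, and the switch of site was complete in each of them. With at least 10 reads in every library it was called by the quasi-binomial test (adjusted p = 0.000252), 1 of 3 distant events called at that limit (0.424%, against 0.415% of all events). TPM of the gene was low, from 0.93 to 8.82.

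With at least 1 read in every library, 4 distant events were called (0.36%, against 0.349% of all events), among them those in LOC_Os03g26360 and LOC_Os11g42350. LOC_Os03g26360 (16 bases) had 0 of 29 upstream reads in sgs3 and 141 of 187 in wild type, with wild-type levels of 0.640 and 0.795 (quasi-binomial adjusted p = 0.0367). Its TPM was 1.18, 0.71 and 3.27 in sgs3 and 16.81, 9.15 and 13.58 in wild type. The glutathione synthetase gene LOC_Os11g42350 (217 bases), whose enzyme makes the antioxidant glutathione, had 0 of 71 upstream reads in sgs3 and 12 of 33 in wild type (quasi-binomial adjusted p = 0.0478). TPM was 1.27 to 3.14 in sgs3 and 7.69 to 8.14 in wild type. In both genes the group that lacked the site also had the lower TPM, and the part of gene level in the difference was not tested. These genes were chosen after their values were seen.

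**Figure D5:**
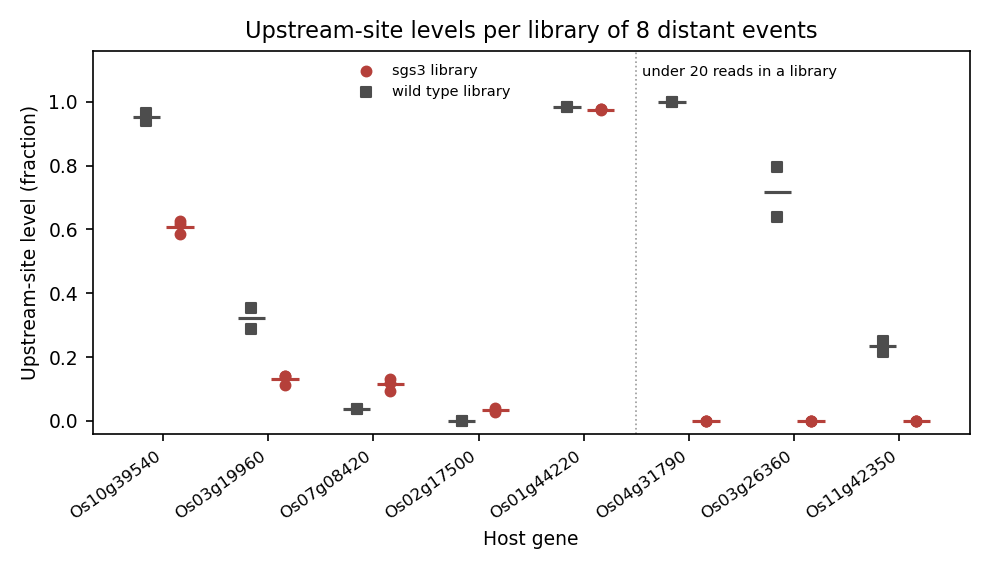
Upstream-site level (y axis, fraction) per library and group mean (bars) for 8 distant events (x axis, host gene without its LOC prefix); the 3 right of the dotted line had under 20 reads in some library. The 2 called events are at the left, and in LOC_Os04g31790 all sgs3 libraries lie at 0 and both wild-type libraries at 1.

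None of the 3 tested members with the longest distances was called. In the CLEC16A homolog LOC_Os04g23210, the longest at 2774 bases, levels were 0.0824, 0.161 and 0.101 in sgs3 and 0.121 and 0.118 in wild type. The ubiquitin ligase gene LOC_Os05g07070 (HIP1, 2342 bases) had 0.939, 0.869 and 0.897 in sgs3 and 0.825 and 0.785 in wild type. Its groups did not overlap, but the difference of 0.0966 did not pass (quasi-binomial adjusted p = 0.502). In the histone deacetylase gene LOC_Os01g68160 (HDT2, 2204 bases) the levels ran from 0.0210 to 0.0989 in sgs3 and were 0.0802 and 0.0806 in wild type.

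Of the other gene groups, no further member was called. The F-box/kelch-repeat gene LOC_Os11g08830 (532 bases) had levels of 0.115, 0.130 and 0.0976 in sgs3 and of 0.253 and 0.333 in wild type, without overlap, but did not pass (quasi-binomial adjusted p = 0.128). The ribosomal protein L23A gene LOC_Os01g24690 (45 bases) had levels of 1, 1 and 0.993 in sgs3 and of 0.979 and 0.960 in wild type (quasi-binomial adjusted p = 0.137). Its TPM differed far more, at 47.04, 43.06 and 189.8 in sgs3 against 1228.39, 280.81 and 481.46 in wild type. The heat stress transcription factor A-2c gene LOC_Os10g28340 (216 bases) had mean levels of 0.168 ± 0.0730 (SD, n = 3) in sgs3 and of 0.0567 ± 0.00824 (SD, n = 2) in wild type (quasi-binomial adjusted p = 0.319). The ADP-ribosylation factor gene LOC_Os02g03610 (25 bases), for vesicle budding, had levels of 0.908 to 0.987 in sgs3 and of 0.986 and 0.990 in wild type. The DnaJ chaperone gene LOC_Os01g74580 (45 bases) stayed at 0.974 or more.

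Members hosted by small RNA pathway genes had fewer reads than the limit of 20 per library. The Dicer homolog 4 gene LOC_Os09g24954, whose product cuts the double-stranded RNA that SGS3 helps to make, had 18 reads over the 5 libraries for sites 54 bases apart, with both sites read. The double-stranded RNA-binding protein genes LOC_Os11g01869 and LOC_Os12g01916 have sites 121 bases apart in each. The first had 34 reads and, with at least 1 read in every library as the limit, a difference of -0.0675 that did not pass the quasi-binomial test (adjusted p = 0.983). The 2 events of the other had 10 and 13 reads. None of these 4 events reached the limit of 20 reads, so a difference between the groups was neither shown nor excluded.

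The shares of host genes of distant events that passed the test on TPM lay close to those of all genes. Of 1001 host genes tested on log2(TPM + 1) with limma, 238 were lower in sgs3 (23.8%, against 26.3% of 16352 genes) and 13 were higher (1.3%, against 1.55%). Their median log2 fold change was -0.84, against -0.86 for all genes. Median-of-ratios scaling shifted the median of all genes to -0.01 and left 5 host genes lower (0.5%, against 1.03%) and 12 higher (1.2%, against 1.6%), with a host median of 0.07. The unscaled count rested on single libraries: without sgs3 replicate 1, sgs3 replicate 2 or wild-type replicate 3 it was 0, and without wild-type replicate 1 it was 8. Without wild-type replicate 2 it was 441, and without sgs3 replicate 3 it was 357. Among the lists, ribosome and translation hosts had 19 of 31 genes lower and a median of -1.53, with 0 called and a median of -0.66 after scaling. Spliceosome hosts had 7 of 34 lower and 1 higher with a median of -1.14, and 0 called and a median of -0.09 after scaling.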

How the data were processed

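Grain RNA libraries of Zhenong 34 (3) and sgs3 (3) were made with a SMARTer mRNA kit, per the labels. The submitters' processing notes name Bowtie2, DESeq2 1.12.4, HISAT2 2.1.0, StringTie and RSEM, with no roles. Build and splicing program: not given in the sources used here. The authors deposited gene TPM, whose depth is unknown, and splicing tables with junction reads, levels, form lengths and FDR (adjusted p-values) per event. Headings of the read columns contradict those of the levels. Groups followed the level headings, since reads then followed TPM in 488 of 535 distant events in genes changed in TPM (91.2%), and levels were recomputed to within 0.0005. Libraries in a cell carry no replicate number. Coordinates were counted from 1.

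Events with at least 20 reads in every library were fitted with a quasi-binomial logistic model, its dispersion moderated by limma 3.58.1 in R 4.3.3 (5.513 prior degrees of freedom), and p-values were Benjamini-Hochberg adjusted over the 5471 tested events of all kinds. Calls needed an adjusted p under 0.05 and a difference of at least 0.1. Host genes with 1 TPM or more in 3 or more libraries were fitted with limma trend on log2(TPM + 1), also after median-of-ratios scaling. Both were also run on simulated data with planted changes. The simulated TPM noise had the same spread for all genes, so that run does not bear on the TPM counts given here. Named members were the called events, the 3 best-read uncalled and 3 longest tested events, the smallest p of each host list (up to 8) and all small RNA pathway hosts. Members, lists and the rule were chosen with earlier results of these data known. Alternatives covered read limits, test, adjustment, thresholds, scaling, pseudocounts and each library left out. Tables were made with Python 3.11.15 and pandas 2.3.3.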

Additional observations from a re-analysis of the deposited data

How the results depend on the processing

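The count of 2 called distant events was 3 with at least 10 reads or with adjustment over alternative 3' splice sites alone, 2 with at least 50 reads or with the dispersion not below 1 (added after the data were seen), and 4 with at least 1 read. It was 1 with limma on empirical logits, the event in LOC_Os04g35000 that is neither of these 2, 1 with a minimum difference of 0.2, 5 without a minimum difference and 25 by the authors' deposited FDR. It ranged from 0 to 7 with 1 library left out, 7 being without the wild-type library at the first place. Over both distance classes the count of 6 became 11 with at least 1 read and 41 by the authors' deposited FDR, and 1 to 12 with a library left out. Over all kinds the 26 became 12 with at least 50 reads or empirical logits, 42 without a minimum difference and 1 to 36 with a library left out. The cause of these shifts was not tested. The difference of uncalled members near 0 turned sign with a library left out for LOC_Os02g32660 (-0.00405 to 0.0162), LOC_Os04g23210 (-0.0279 to 0.0114) and LOC_Os01g74580 (-0.0102 to 0.00277). The 251 called host genes became 17 after median-of-ratios scaling, 4 with a pseudocount of 5, 1 without a filter and 0 to 441 with a library left out. With the replicate block the count was 1. Deviations of same-numbered libraries correlated at -0.527, 0.212 and -0.0913, while those of sgs3 replicate 1 and wild-type replicate 2 correlated at 0.541. These values show no pairing by number, but 3 libraries per group cannot settle whether the libraries were paired. No paired analysis was possible for splicing because its libraries carry no numbers. Depth limits the 745 members with fewer than 20 reads in some library.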

Other observations

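The cytochrome P450 84A1 gene LOC_Os03g02180, a ferulate-5-hydroxylase of lignin synthesis, held 4 tested distant events with sites 814 to 826 bases apart, built from 2 upstream and 2 downstream sites 6 bases apart. In the sgs3 library at the third place, the events ending at the downstream site 728506 had a level of 1, against 0.0919 to 0.429 in the other 2 sgs3 libraries and 0.190 to 0.437 in wild type. In the same library the events ending at 728500 had levels of 0.137 and 0.387, close to the other libraries. LOC_Os02g55080, a gene without description, had the sites 595 bases apart with 3360 reads and levels of 0.592, 0.573 and 0.444 in sgs3 and of 0.569 and 0.298 in wild type, so the libraries of each group differed as much as the groups. Among tested members the largest difference of all was in LOC_Os11g18990, described as a HIT-like protein, with sites 405 bases apart: levels were 0.581, 0.476 and 0.108 in sgs3 and 0 and 0.0392 in wild type on 201 reads, and it did not pass (quasi-binomial adjusted p = 0.222). These 3 genes were chosen after their values were seen.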
